A study of Mus musculus with 6 samples.

Results

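The 6 genes P2rx1, P2rx5, P2ry1, P2ry2, P2ry14 and Adora1 encode receptors for extracellular nucleotides and adenosine, and were followed here in the kidney cells other than macrophages. They were chosen by symbol, as 6 of the 33696 genes in the tables, with earlier results of these data known. Their unique molecular identifiers (UMIs, one per captured mRNA molecule) were summed over the cells of each type in each mouse. The study compared 3 Sham and 3 DOCA-salt male C57BL/6 mice by single-cell RNA sequencing of dissociated kidney. The mice were 8 to 10 weeks old when purchased, before surgery and treatment. DOCA-salt mice lost the left kidney, carried a 50 mg pellet of deoxycorticosterone acetate (a mineralocorticoid) from the following week and drank 1% NaCl for 21 days. Sham mice had sham surgery, no pellet and normal water. Nephrectomy, salt and steroid differed together between the groups, so their effects cannot be told apart.

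Of 76774 barcodes, 55630 cells were kept, 7701 to 9933 per mouse, with a median of 4787 to 9148 UMIs per cell in a mouse. Any pair of libraries shared 33 to 69 barcodes. Levels below are scaled counts (CPM): UMIs of the gene per 1000000 UMIs of that cell type in that mouse. A cell type was tested where each group had at least 2 mice with at least 10 cells of the type, and 13 types outside the immune cells that met this were chosen for testing. The parietal epithelium met it too and was added after the data were seen. Fibroblasts did not, with 39 cells in the Sham mice together against 819 in the DOCA-salt mice. A further group of 710 cells led by fibroblast genes held 627 cells of DOCA-salt mouse 2 and was left without a name. Cells without a name numbered 8190, of which 6661 were 1 cluster of low UMI count, and 794 were named only as cycling cells. All of these were tested only within the sum of all cells. In sums over a type, a lower level per cell and fewer expressing cells cannot be told apart.

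P2X receptors are cation channels that ATP opens, and P2Y and adenosine receptors couple to G proteins. P2X1 is the receptor through which ATP constricts small renal arteries. P2Y1 binds ADP and P2Y2 binds ATP and UTP, and both act mainly through Gq, phospholipase C and calcium release. P2Y14 binds UDP-glucose and related UDP-sugars and acts through Gi. The adenosine A1 receptor, the product of Adora1, also acts through Gi, lowers cyclic AMP and mediates tubuloglomerular feedback.

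Positions are from the GRCm39 annotation. P2rx1 spanned chromosome 11 from 72889875 to 72906026 and P2rx5 chromosome 11 from 73050362 to 73066157, both on the plus strand. P2ry1 spanned chromosome 3 from 60910159 to 60916403 on the plus strand, and P2ry14 chromosome 3 from 59021276 to 59061134 on the minus strand. P2ry2 (chromosome 7, 100640649 to 100663957) and Adora1 (chromosome 1, 134126948 to 134163579) lay on the minus strand. Each of the 6 genes overlapped at least 1 gene on the opposite strand, and how the counting used strand is not given in the sources used here. For P2rx1, P2ry1 and Adora1 the overlapping genes in the tables (4732414G09Rik, Gm37035 and Mybph) had 0 to 1 UMIs per mouse in the receptor's highest cell type. P2ry14 lies inside Med12l, whose level in type A intercalated cells was 8.9 to 19.7 CPM. P2rx5 lies inside the span of Emc6, which held 117 to 177 CPM in the thick ascending limb, more than P2rx5 itself.

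Promoter windows from RefSeq (GRCm38.p6) were found for P2rx1, P2ry1, P2ry2, P2ry14 and Adora1. P2rx1 is shown as the gene held almost wholly by 1 cell type, and P2ry14 as the gene with the most start sites, which differed in the motifs they hold. Each sequence is the 250 bases before the annotated start, 5′ to 3′ on the gene's strand, with a forkhead core (TAAACA) or a steroid receptor half-site (TGTTCT) in capitals, on either strand. Of all 32851 promoter windows of 300 bases, 13.4% held the forkhead core, 19.0% the half-site and 1.63% a CArG box, the element bound by serum response factor in muscle genes. The windows printed for P2ry14 start sites 2 and 3 overlap each other, one holding the half-site and the other the forkhead core, and the P2rx1 window held none of the 3 motifs. That forkhead core lies just past the 3′ end of the start 2 sequence. Of the 4 P2ry14 windows of 300 bases, 2 held the forkhead core and 1 the half-site. A match is a run of letters and not a shown binding site.
P2rx1, chr11:72998895-72999144, plus strand: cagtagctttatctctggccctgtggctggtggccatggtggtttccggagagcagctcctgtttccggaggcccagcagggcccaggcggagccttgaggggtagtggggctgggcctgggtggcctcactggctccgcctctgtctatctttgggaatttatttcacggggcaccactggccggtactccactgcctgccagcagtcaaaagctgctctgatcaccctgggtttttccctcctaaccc
P2ry14 start 2, chr3:59131329-59131578, minus strand: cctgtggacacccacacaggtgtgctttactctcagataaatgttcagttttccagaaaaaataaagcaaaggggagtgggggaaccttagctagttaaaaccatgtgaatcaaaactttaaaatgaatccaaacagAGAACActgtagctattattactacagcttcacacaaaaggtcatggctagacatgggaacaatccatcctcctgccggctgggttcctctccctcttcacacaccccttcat
P2ry14 start 3, chr3:59131119-59131368, minus strand: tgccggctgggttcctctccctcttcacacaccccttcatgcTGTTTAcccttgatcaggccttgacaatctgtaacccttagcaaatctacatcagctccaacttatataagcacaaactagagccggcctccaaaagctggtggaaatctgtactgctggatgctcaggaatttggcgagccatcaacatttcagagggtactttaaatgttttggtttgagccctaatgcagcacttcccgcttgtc

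Each of the 6 receptors had its own distribution over the 22 named cell types, taking mice with at least 10 cells of a type. P2rx1 was the most restricted: smooth muscle cells and pericytes held 83.7% of its UMIs, at 134 ± 38.2 CPM (SD, n = 6 mice), and no other type exceeded a mean of 1.31 CPM. These cells were marked by Acta2, Myh11 and Rgs5, and all 8 of their markers were detected. Over the types, the genes most like P2rx1 were Or51e1, an olfactory receptor gene, Trarg1 and Sgca, a sarcoglycan of muscle, with Pearson r of 0.991 to 0.994 over 22 points. P2rx5 was highest in the thick ascending limb (20.7 ± 1.74 CPM), the segment that reabsorbs sodium through Slc12a1 and secretes uromodulin, with 30.3% of its UMIs. The small S3 segment group followed at 15.6 ± 9.40 CPM and dendritic cells at 12.9 ± 6.41 CPM, and the ranges of the 3 overlapped. A larger proximal tubule group, left without a segment name though led mostly by S3 markers, stood at 6.19 ± 1.11 CPM. The genes most like P2rx5 were Slc5a1, a glucose transporter, Cldn10 and Slc15a2 (r of 0.777 to 0.824). Slc5a1 was itself highest in the thick ascending limb (235 CPM), and Cldn10 was a marker used to name that type. Genes and types share libraries and depth, so these correlations are descriptions.

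P2ry1 was highest in endothelium, at 12.7 ± 1.85 CPM, above every mouse's value in the next type, the connecting tubule (4.84 ± 2.10 CPM). Fibroblasts and urothelium, with 4 mice each and few cells in some, had single values up to 13.2 and 12.2 CPM. Since proximal tubule cells are far more numerous, S1 cells still held 30.1% of P2ry1 UMIs and endothelium 24.8%, with S1 at 3.10 ± 0.53 CPM. Hyal2, F8 (coagulation factor VIII) and Ppm1f were most like it (r of 0.767 to 0.846). P2ry2 stood at 15 ± 0.85 CPM in the thin limb and 12.3 ± 4.38 CPM in endothelium, whose ranges overlapped, and at 7.63 ± 1.82 CPM in principal cells. Urothelium and S3 cells, with few cells, had means of 10.3 and 7.84 CPM with values from 0 to 23.8 CPM. Neutrophils had a higher mean (27.5 ± 32.0 CPM, n = 4 mice), but their values ran from 0 to 59.4 CPM and all mice together had 68 of these cells. The genes most like P2ry2 were Chmp5, Eva1c and Gm36660 (r of 0.695 to 0.741).

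P2ry14 was highest in 2 unrelated types at overlapping levels, dendritic cells at 113 ± 36.3 CPM and type A intercalated cells, the acid-secreting cells of the collecting duct, at 95.8 ± 22.5 CPM. Type A cells gave 50.3% of its UMIs and dendritic cells 16.0%. Neutrophils followed at 33.1 ± 53.7 CPM (n = 4 mice, 0 to 112 CPM), and smooth muscle cells and pericytes, macrophages, monocytes and pendrin-positive cells had means of 10.4 to 13.8 CPM. Racgap1, Kit and Hepacam2 were most like it (r of 0.723 to 0.751), and Kit was itself a marker used to name type A cells. Adora1 was highest in the thin limb (50.9 ± 9.21 CPM, 46.3% of its UMIs), followed with overlapping ranges by principal cells, which reabsorb sodium and water, at 32.5 ± 9.49 CPM and type A intercalated cells at 15.3 ± 6.07 CPM. Plet1os and Parm1 were most like it (r of 0.864 and 0.859), and Parm1 was itself a marker used to name pendrin-positive cells.

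The levels were low per cell, so each cell was also thinned to 1000 UMIs and the percentage holding a UMI of the gene was taken. Thinned shares of P2rx1 in smooth muscle cells and pericytes were 7.67% to 14.7% over the 6 mice (23.8% to 43.1% before thinning), against 0% to 0.0271% in S1 cells, a type that should lack it. Thinned shares of P2ry14 in type A cells were 7.89% to 12.9% (49.0% to 68.9% before thinning), and of Adora1 in the thin limb 4.30% to 5.88% (36.4% to 58.2% before). In S1 cells the thinned shares of P2ry14 and Adora1 were at most 0.0662% and 0.0421%. Median depths in Sham and DOCA-salt cells were 3855 and 5468 UMIs in smooth muscle cells and pericytes, 11796 and 14156 in type A cells, 11823 and 14952 in the thin limb and 9046 and 9658 in S1 cells.

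**Figure D1:**
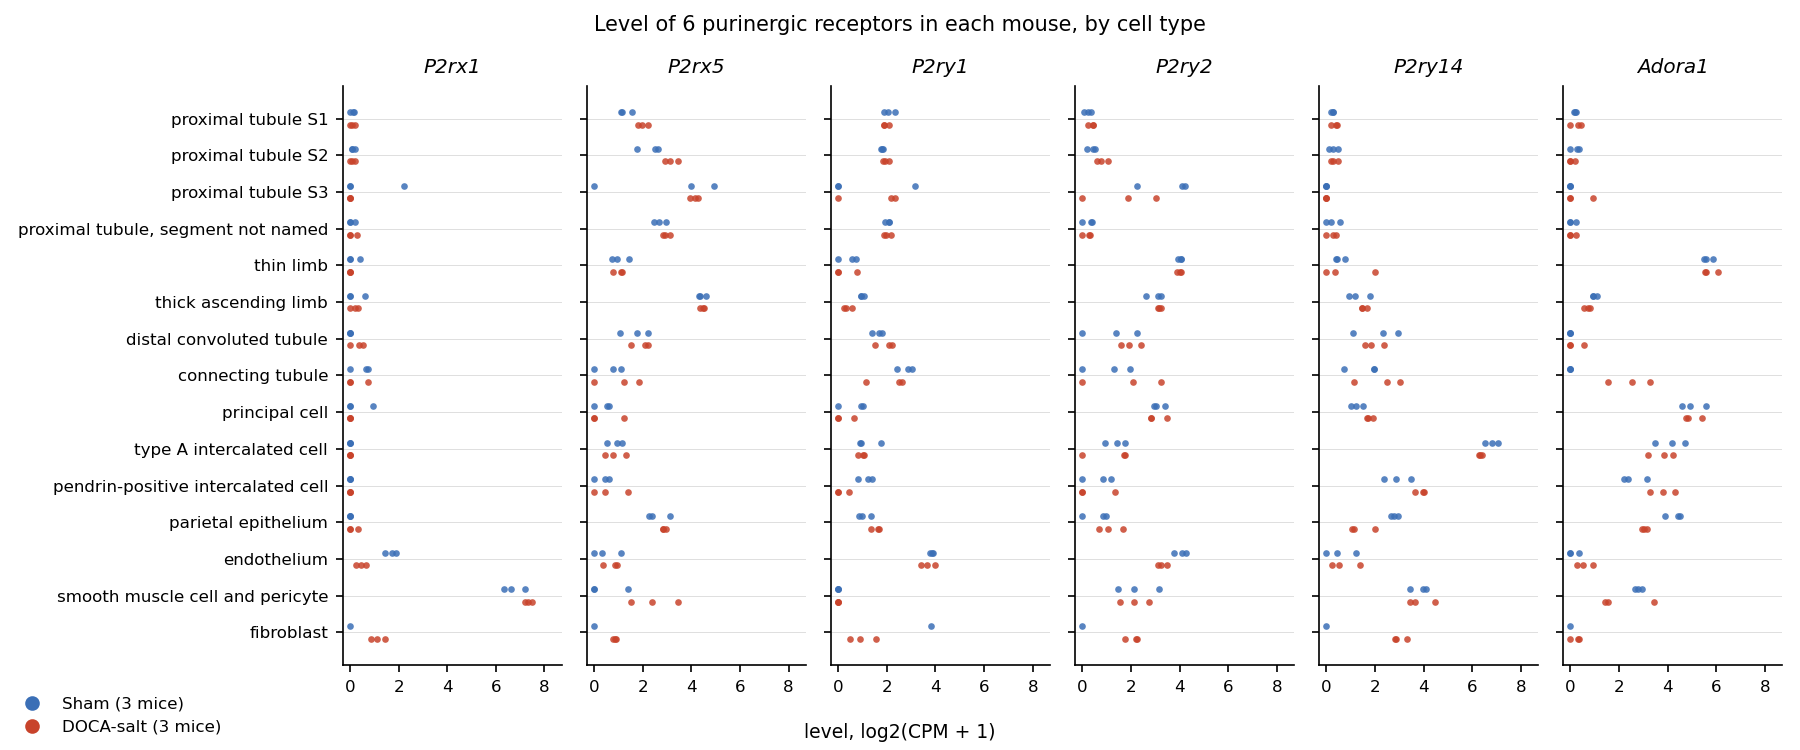
Level of each receptor, as log2(CPM + 1) on the horizontal axis, in each cell type (rows) of each Sham (blue) and DOCA-salt (red) mouse with at least 10 cells of the type. The rows leave out immune cells and urothelium. Among the rows drawn, P2rx1 stands out in smooth muscle cells and pericytes, P2ry14 in type A intercalated cells and Adora1 in the thin limb. Fibroblasts have a point for 1 Sham mouse only.

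The design asks which of these receptors differed between Sham and DOCA-salt mice, and in which cells. Over the 13 types, 20 of 78 receptor and cell type pairs had enough counts to be tested, with edgeR's quasi-likelihood test on sums per mouse and Benjamini-Hochberg adjustment over all genes of the type. At an adjusted p below 0.05, 2 pairs were higher in DOCA-salt mice and 1 was lower. Over all genes and the same types 7.0% of pairs passed (4.01% higher and 2.98% lower), against 15% of these 20. These receptors, and the gene lists below, were chosen with earlier results of these data known. Their shares are therefore descriptions only. The median log2 change of the 20 pairs was 0.08, with 13 above 0 and 7 at an unadjusted p below 0.05 (28038 of 140397 pairs over all genes). The 58 pairs below the filter had a median of 11 UMIs over the 6 mice and at most 51, and 4 had none. In the sum of all cells none of the 6 receptors passed by edgeR, against 17.2% of all genes. There, 1 had an unadjusted p below 0.05 (P2ry14, log2 change 0.44 ± 0.16 SE, adjusted p = 0.106), and DESeq2 also gave none.

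**Figure D2:**
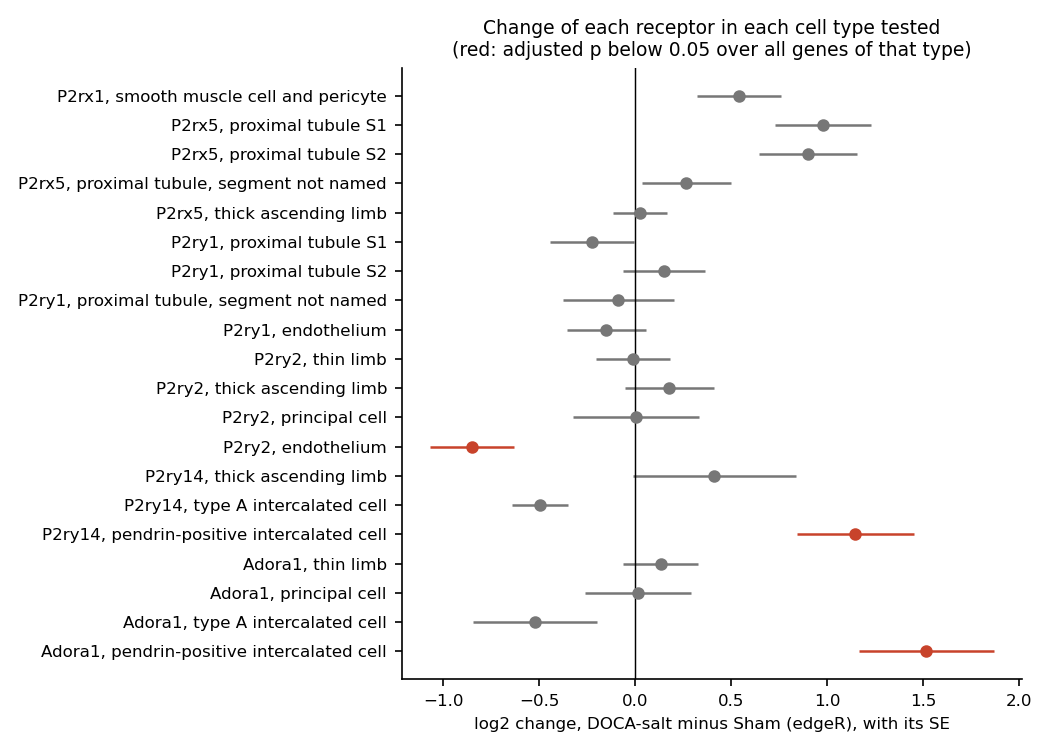
Log2 change from Sham to DOCA-salt (horizontal axis, edgeR estimate with its SE) for each of the 20 receptor and cell type pairs tested. The 3 red pairs passed the adjusted threshold: P2ry2 in endothelium below 0, P2ry14 and Adora1 in pendrin-positive intercalated cells above 0.

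Both pairs that were higher lay in pendrin-positive intercalated cells, the cells that secrete bicarbonate and reabsorb chloride through pendrin (Slc26a4) and that respond to mineralocorticoids. Adora1 was at 7.77, 4.10 and 3.53 CPM in Sham mice and 13, 18.6 and 8.77 CPM in DOCA-salt mice, from 11 to 37 UMIs per mouse. All DOCA-salt mice lay above all Sham mice. The log2 change was 1.52 ± 0.35 (SE), or 2.86-fold, with an edgeR adjusted p of 0.0151, in a type where 9.80% of genes passed and 4.71% were higher.

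P2ry14 in the same cells was at 10.2, 6.34 and 4.18 CPM in Sham mice and 14.8, 11.3 and 15.4 CPM in DOCA-salt mice, again without overlap. The log2 change was 1.15 ± 0.30 (SE), or 2.21-fold, with an edgeR adjusted p of 0.0299. In type A cells, which share the lineage but export acid, P2ry14 was at 113, 133 and 90.5 CPM in Sham mice and 83.1, 76.4 and 79.1 CPM in DOCA-salt mice. There the DOCA-salt mice lay below the Sham mice and the change of -0.49 ± 0.15 did not pass (edgeR adjusted p = 0.0911, where 3.64% of genes passed). In cells of at most 20% mitochondrial UMIs, 306 of 938 type A cells, it did pass, with a change of -0.95 (edgeR adjusted p = 0.0320). The direct test of the difference between the 2 changes, with each mouse as a block, gave 1.62 ± 0.26 on the log2 scale and an adjusted p of 0.000268 by edgeR, where 8.68% of genes passed.

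Adora1 did not pass in its 3 highest types. In the thin limb it was at 46.3, 43.6 and 58.0 CPM in Sham mice and 44.9, 66.5 and 46.2 CPM in DOCA-salt mice (log2 change 0.13 ± 0.19), in principal cells the change was 0.01 ± 0.27 and in type A cells -0.52 ± 0.32. The groups overlapped in each of the 3. The change in pendrin-positive cells minus that in the thin limb was 1.40 ± 0.31 (edgeR adjusted p = 0.00561), where 7.69% of genes passed. The thin limb was made of 2 clusters, the smaller of which held 19.4 ± 4.08% of its cells in Sham and 39.3 ± 8.25% in DOCA-salt mice (SD, n = 3 each), and the part of this shift in the difference was not tested.

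Markers of other cells were compared within the pendrin-positive cells. All 6 of their own markers were detected, and their sum was 5101 to 5414 CPM in Sham and 5363 to 5670 CPM in DOCA-salt mice. The summed level of 4 type A markers was 173 to 238 CPM in Sham and 314 to 514 CPM in DOCA-salt mice, with none at 0, and as a share of the type A level it was 4.27% to 5.38% and then 10.7% to 16.3%. P2ry14 by the same share was 4.62% to 9.05% and then 14.8% to 19.4%, and both were higher in DOCA-salt mice. Aqp6 was the type A marker that rose (log2 change 1.45 ± 0.21), and the part of these markers in the P2ry14 result was not tested beyond 1 subset. In the 614 pendrin-positive cells with no UMI of a type A marker, the P2ry14 change was 1.24 ± 0.42 with an edgeR adjusted p of 0.0952. For Adora1, the 7 principal cell markers went the other way, at 3.86% to 5.02% of their own level in Sham mice and 2.20% to 2.66% in DOCA-salt mice, while Adora1 itself stood at 12% to 17.8% of the principal cell level and then 31.8% to 49.7%. The 7 thin limb markers stood at 0.720% to 1.12% of their own level in Sham mice and 1.27% to 1.48% in DOCA-salt mice. The type A markers, given above, rose, and Adora1 stood at 20.5% to 40.0% of the type A level in Sham mice and 97.3% to 107% in DOCA-salt mice. The part of any of these markers in the Adora1 result was not tested.

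Pendrin-positive cells of the 2 groups also differed in mitochondrial share, with medians of 22.1% to 24.9% in Sham and 28.6% to 31.4% in DOCA-salt mice. A cluster of low UMI count made up 18.7 ± 0.707% of them in Sham and 41.5 ± 3.35% in DOCA-salt mice (SD, n = 3 each). In the larger cluster of fuller cells alone, P2ry14 stood at 4.00 to 9.66 CPM in Sham and 12.7 to 15.5 CPM in DOCA-salt mice, and Adora1 at 3.67 to 8.00 and 9.77 to 20.2 CPM, both without overlap. With cells of at most 20% mitochondrial UMIs only 26.6% of the pendrin-positive cells remained and neither receptor passed the count filter. In these 206 Sham and 115 DOCA-salt cells P2ry14 was at 12.5, 7.65 and 9.62 CPM in Sham and 32.7, 18.1 and 5.86 CPM in DOCA-salt mice, from 1 to 17 UMIs per mouse. Adora1 was at 10.3, 4.25 and 3.21 CPM in Sham and 15.4, 12 and 5.86 CPM in DOCA-salt mice, from 1 to 14 UMIs. The pooled levels were higher in DOCA-salt mice for both (10.1 and 23.5 CPM, and 6.65 and 12.7 CPM), and the groups overlapped. The difference of the Adora1 changes between pendrin-positive cells and the thin limb was then 0.72 (edgeR adjusted p = 0.599). Leaving out DOCA-salt mouse 2 (adjusted p = 0.0708) or Sham mouse 3 (0.0529) ended the Adora1 call by edgeR. Leaving out DOCA-salt mouse 1 (0.111), DOCA-salt mouse 3 (0.115) or Sham mouse 3 (0.10) ended the P2ry14 call by the same test, as did the replicate block (0.0757), cells assigned by marker score (0.0557) and scaling by library size only (0.0508). Without doublet removal the Adora1 call was also lost (edgeR adjusted p = 0.0566). After thinning to 1000 UMIs, 0.293% to 0.725% of Sham and 0.931% to 1.61% of DOCA-salt pendrin-positive cells had an Adora1 UMI, an exact two-sided permutation p of 0.1, which is the smallest that 3 against 3 mice allow.

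**Figure D3:**
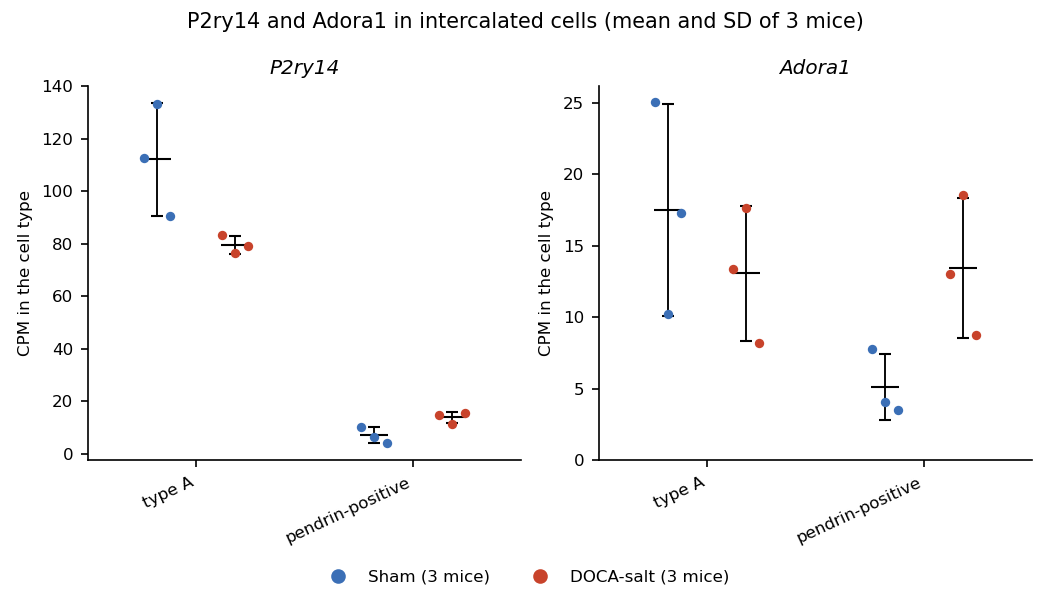
P2ry14 (left) and Adora1 (right), in CPM, in type A and pendrin-positive intercalated cells of each Sham (blue) and DOCA-salt (red) mouse, with the mean and SD of 3 mice in black. In pendrin-positive cells both receptors are higher in all DOCA-salt mice, and in type A cells P2ry14 is lower in all DOCA-salt mice without passing the test.

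The pair that was lower was P2ry2 in endothelium. P2ry2 was at 12.5, 18.4 and 16.4 CPM in Sham mice and 7.61, 8.38 and 10.2 CPM in DOCA-salt mice, with no overlap. The log2 change was -0.85 ± 0.22 (SE), or 0.55-fold, with an edgeR adjusted p of 0.0347, in a type where 9.08% of genes passed and 4.22% were lower. In the thin limb, where P2ry2 was as high, it was at 15.7, 15.8 and 14.2 CPM in Sham mice and 15.6, 15.1 and 13.8 CPM in DOCA-salt mice, a change of -0.01 ± 0.19. The difference between the 2 changes was -0.81 ± 0.27 and did not pass (edgeR adjusted p = 0.0958, where 5.93% of genes passed). P2ry1 in endothelium was at 13.3, 14 and 12.8 CPM in Sham mice and 11.6, 14.9 and 9.67 CPM in DOCA-salt mice, a change of -0.15 ± 0.21.

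All 12 endothelial markers were detected, but the cells fell into a Plvap-rich part and a Cldn5-rich part. The Plvap-rich part was marked by Plvap, Flt1 and Kdr as fenestrated capillaries are. The Cldn5-rich part was marked by Cldn5 and Sox17, with Slc14a1 next among the leading genes of its larger cluster. The kind of vessel it came from was not tested. This split was chosen after the data were seen. The Cldn5-rich part made up 51.4%, 42.5% and 57.0% of endothelial cells in Sham mice and 31.0%, 30.7% and 34.4% in DOCA-salt mice. P2ry2 was mostly in the Cldn5-rich part, at 16.2, 27.8 and 21.7 CPM in Sham mice and 16.7, 21.8 and 25.7 CPM in DOCA-salt mice, with a change of -0.03 ± 0.25. In the Plvap-rich part it did not exceed 4.33 CPM in any mouse. The groups overlapped within each part. The part of this split in the P2ry2 result over all endothelium was not tested. After thinning to 1000 UMIs, 0.628% to 1.14% of Sham and 0.516% to 0.817% of DOCA-salt endothelial cells had a P2ry2 UMI, which overlapped (exact two-sided permutation p = 0.2). The 7 thin limb markers were also lower in DOCA-salt endothelium, at 104 to 159 CPM against 414 to 444 CPM, or a mean of 1.2% against 4.06% of their own level. Leaving out any single mouse other than Sham mouse 1 ended the P2ry2 call, with adjusted p of 0.0546 to 0.138 by edgeR, as did the replicate block (0.0843) and no doublet removal (0.0520).

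P2ry1 went in opposite directions in the 2 parts. In Plvap-rich cells it was at 12.1, 17.6 and 27.4 CPM in Sham mice and 5.87, 8.84 and 4.43 CPM in DOCA-salt mice, and no values overlapped. The log2 change was -1.50 ± 0.36 (SE), with an edgeR adjusted p of 0.0246, where 7.13% of genes passed. The thinned share of these cells with a P2ry1 UMI overlapped between groups, at 0.600% to 1.97% in Sham and 0.292% to 0.906% in DOCA-salt mice (exact two-sided permutation p = 0.2). In Cldn5-rich cells it was at 13.9, 12.1 and 8.12 CPM in Sham mice and 19.5, 29.1 and 21.2 CPM in DOCA-salt mice, a change of 1.03 ± 0.26 that did not pass (edgeR adjusted p = 0.128, where 0.556% of genes passed). With no filter on low counts that change passed (edgeR adjusted p = 0.00838). The difference between the 2 changes was -2.53 ± 0.41 on the log2 scale with an adjusted p of 0.00110 by edgeR, where 3.23% of genes passed. The Cldn5-rich part joined 2 clusters whose mix differed: the larger held 40.5 ± 3.32% of endothelial cells in Sham and 20.4 ± 5.55% in DOCA-salt mice, and a cluster of low UMI count 9.84 ± 4.66% and 11.7 ± 6.40% (SD, n = 3 each). The low cluster gave 17729 to 106703 of the 1748446 to 2592684 UMIs of this part per mouse. The same test for P2ry2 gave 0.27 ± 0.74, and with cells assigned by marker score it turned to -2.25 (edgeR adjusted p = 0.00233). Ehd3, a gene of glomerular endothelium, fell in Plvap-rich cells (log2 change -1.09 ± 0.18), while the share of these cells with an Ehd3 UMI was 48.2 ± 4.79% in Sham and 64.0 ± 3.84% in DOCA-salt mice. Median depth per cell went in opposite directions in the 2 parts, from 3170.5 UMIs in Sham to 6197 in DOCA-salt mice in Plvap-rich cells and from 6159 to 3935 in Cldn5-rich cells, and its part in the P2ry1 results was not tested. Within Plvap-rich cells with an Ehd3 UMI, P2ry1 had a change of -1.89 ± 0.39 (edgeR adjusted p = 0.00956). Leaving out Sham mouse 3, DOCA-salt mouse 1 or DOCA-salt mouse 3 ended the call in Plvap-rich cells (edgeR adjusted p of 0.0730 to 0.143), as did cells assigned by marker score (0.168) and the limit of 20% mitochondrial UMIs (0.0535), and the difference between the parts kept its call without any one mouse.

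**Figure D4:**
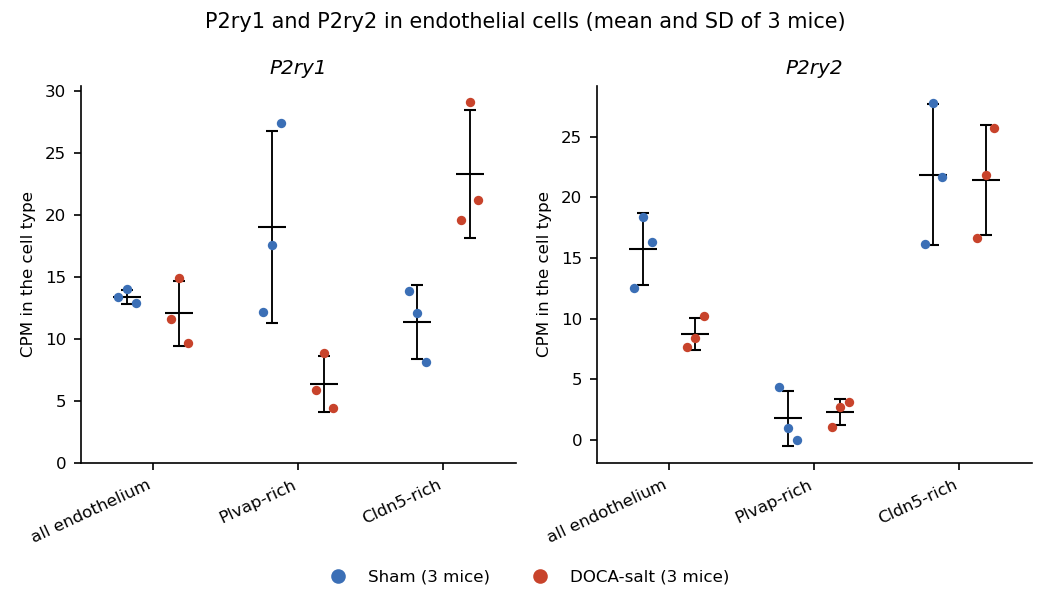
P2ry1 (left) and P2ry2 (right), in CPM, in all endothelial cells and in the Plvap-rich and Cldn5-rich parts, by mouse (Sham blue, DOCA-salt red), with the mean and SD of 3 mice in black. P2ry1 is lower in Plvap-rich and higher in Cldn5-rich cells of DOCA-salt mice, and P2ry2 is low in Plvap-rich cells and overlaps between groups in Cldn5-rich cells.

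P2rx5 did not pass in any tubule segment, though its values in the proximal tubule separated the groups. In S2 cells it was at 5.11, 4.66 and 2.43 CPM in Sham mice and 7.62, 6.50 and 9.88 CPM in DOCA-salt mice (log2 change 0.90 ± 0.26, edgeR adjusted p = 0.0503). In S1 cells it was at 1.93, 1.19 and 1.17 CPM in Sham mice and 2.50, 2.87 and 3.60 CPM in DOCA-salt mice (0.98 ± 0.25, adjusted p = 0.0583 by edgeR), where 4.93% of S1 and 11.5% of S2 genes passed. All DOCA-salt mice lay above all Sham mice in both segments, which for 3 against 3 mice is an exact two-sided permutation p of 0.1. Both adjusted p values were just over the threshold. By DESeq2 both passed, with adjusted p of 0.0157 in S2 and 0.0248 in S1, and in cells of at most 20% mitochondrial UMIs S2 passed by edgeR (adjusted p = 0.0470). With no filter on low counts both passed as well (edgeR adjusted p of 0.0025 in S2 and 0.0192 in S1). Over all proximal tubule cells the change was 0.72 ± 0.19 (edgeR adjusted p = 0.0509), and it passed in 7 of 15 alternatives. A group of 2415 proximal tubule cells was left without a segment name. It was led by the S3 markers Slc7a13, Slc5a8, Slc6a18 and Atp11a and the S2 marker Slc22a30. There the P2rx5 change was 0.27 ± 0.23 and the groups overlapped. The change was 0.76 without doublet removal (edgeR adjusted p = 0.0281) and 0.67 at resolution 2 of the clustering (0.0339), and passed in both.

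In the thick ascending limb, where P2rx5 is highest, it was at 19.1, 23.1 and 19.3 CPM in Sham mice and 22.3, 19.2 and 21.0 CPM in DOCA-salt mice, a change of 0.03 ± 0.14. The 6 thick ascending limb markers stood at 1.85% to 2.24% of their own level in Sham S2 cells and 1.65% to 1.80% in DOCA-salt S2 cells, while P2rx5 there was 12.6% to 26.7% and then 33.8% to 47.0% of its thick limb level. All 5 tested markers of injured tubule, of 6, rose in S2 cells, and the sum of the 6 was 2.17 to 4.02 CPM in Sham mice and 13.9 to 25.8 CPM in DOCA-salt mice. Their part in the P2rx5 values was not tested. Emc6, on the opposite strand, fell in S2 cells (log2 change -0.47 ± 0.11).

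P2rx1 in smooth muscle cells and pericytes was at 146, 78.6 and 97.4 CPM in Sham mice and 161, 177 and 146 CPM in DOCA-salt mice. The groups touched without overlapping, and the change of 0.54 ± 0.22 did not pass (unadjusted p = 0.0245 and adjusted p = 0.282 by edgeR, where 1.76% of genes passed). Their 8 markers summed to 19406 to 24358 CPM in Sham and 22440 to 32354 CPM in DOCA-salt mice, and none of them passed. Ren1, the renin gene of juxtaglomerular cells, ranged from 164 to 2307 CPM in Sham and 286 to 541 CPM in DOCA-salt mice, and among the 555 cells with no Ren1 UMI the P2rx1 change was 0.42 ± 0.25. In endothelium P2rx1 had 10, 5 and 8 UMIs in Sham mice and 1, 4 and 2 in DOCA-salt mice, too few for the count filter, at 2.24 ± 0.49 and 0.38 ± 0.19 CPM (SD, n = 3). Smooth muscle markers in the same cells summed to 106 to 154 CPM in Sham and 126 to 356 CPM in DOCA-salt mice.

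**Figure D5:**
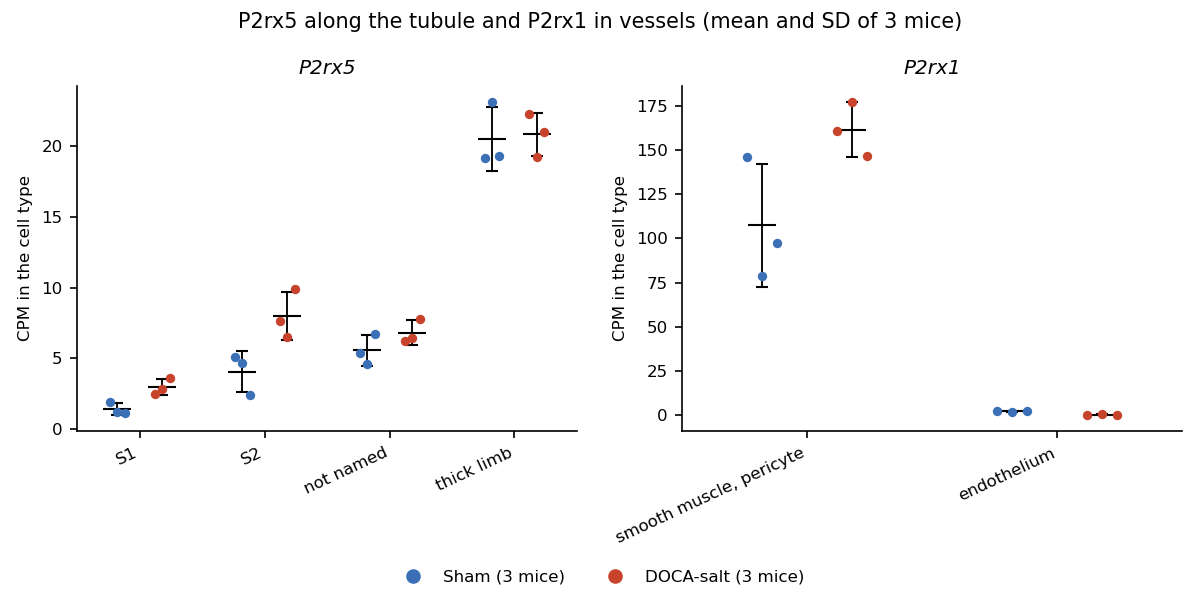
P2rx5 in proximal tubule cells (S1, S2 and the group whose segment was not named) and the thick ascending limb (left), and P2rx1 in smooth muscle cells and pericytes and in endothelium (right), in CPM by mouse, with the mean and SD of 3 mice in black. P2rx5 is higher in all DOCA-salt mice in S1 and S2 and overlaps in the other 2 groups.

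The other tested pairs overlapped between groups: P2ry1 in S1, S2 and the segment not named (log2 changes -0.23, 0.15 and -0.09), P2ry2 in the thick ascending limb and principal cells (0.18 and 0.00) and P2ry14 in the thick ascending limb (0.41 ± 0.42). Adora1 in the connecting tubule was below the filter, with 0 UMIs in each of the 3 Sham mice and 3, 13 and 4 in the DOCA-salt mice. Its pooled DOCA-salt level of 5.13 CPM was at least 7.86-fold higher than the level that 3 counts over the Sham group would give. With no filter on low counts edgeR called, of the pairs below it, this pair and P2rx1 in endothelium. In that setting 5.92% of all pairs passed (23.9% of connecting tubule genes with the filter). The test sets Adora1 against a count of 0 in every Sham mouse and is read here as a description only. Principal cell markers in the connecting tubule were lower in DOCA-salt mice, at 6.26% to 7.97% of their own level against 18.9% to 20.9%. In fibroblasts P2ry14 had 0 UMIs in Sham mice and 15, 38 and 22 in DOCA-salt mice, at 7.37 CPM pooled. With 39 Sham cells, 3 counts would have been 11.5 CPM, so a difference was not detectable at this depth. Among immune cells, P2ry14 had changes of 1.19 ± 0.43 in macrophages and 0.54 ± 0.27 in dendritic cells, and neither passed (edgeR adjusted p of 0.131 and 0.836).

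The parietal epithelium, a type that lines Bowman's capsule, was tested in addition to the 13 types. Its name is less sure than most. The cluster scored 3.93 on the markers of this type and 3.60 on those of podocytes. Its leading genes held Cdh6, a marker of injured tubule, beside Wt1 and Ncam1. Of the 3 receptors tested, P2rx5 overlapped between groups and did not pass (log2 change 0.34 ± 0.37, edgeR adjusted p = 0.599). Adora1 there was at 20.5, 13.9 and 21.6 CPM in Sham mice and 6.69, 7.93 and 7.09 CPM in DOCA-salt mice, and P2ry14 at 5.85, 5.39 and 6.63 against 1.22, 1.10 and 3.00 CPM. Neither overlapped. The log2 changes were -1.31 ± 0.27 and -1.71 ± 0.48, with adjusted p of 0.00484 and 0.0264 by edgeR, in a type where 18.4% of genes passed. The P2ry14 call was lost by DESeq2 (adjusted p = 0.0527) and in each of the 3 edgeR fits without a single Sham mouse (0.0554 to 0.0999), and without a single DOCA-salt mouse the gene was below the filter. The Adora1 call was lost with cells assigned by marker score (edgeR adjusted p = 0.0801). Its cells were not alike between groups: 3 of 4 of its own markers fell, among them Wt1 (-1.27 ± 0.14), all 5 podocyte markers fell, from sums of 169 to 487 CPM in Sham to 25.2 to 51.8 CPM in DOCA-salt mice, and the injury gene Havcr1 rose from at most 5.39 CPM to 102 to 180 CPM. Median depth was 8943 UMIs per cell in Sham and 19089 in DOCA-salt mice. The part of these differences in the 2 results was not tested.

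The remaining purinergic receptors were mostly too low outside immune cells to test. Of 14 genes, 7 gave 20 tested pairs over the 13 types, of which 2 were higher (10% of them, against 4.01% over all genes), none lower by edgeR, and 4 had an unadjusted p below 0.05, about the share over all genes. The 2 were Adora2b in S1 cells (log2 change 1.33 ± 0.30, 0.597 and 1.60 CPM as group means) and Adora2a in endothelium (1.41 ± 0.37, 5.25 and 14 CPM), the Gs-coupled adenosine receptors. Both calls were lost without single mice (adjusted p up to 0.162 and 0.130 by edgeR) and with the replicate block, and the Adora2b call also at 20% mitochondrial UMIs, with marker scores and without doublet removal. In the Plvap-rich part alone, Adora2a overlapped between groups (1.00 ± 0.45, edgeR adjusted p = 0.215), and P2rx4, another ATP-gated channel, fell (-0.93 ± 0.20, edgeR adjusted p = 0.0153). In the sum of all cells 7 of 10 tested were higher, where 17.2% of all genes passed, and in these sums immune cells contribute.

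Among 27 genes of the G protein pathway downstream of P2Y and A1 receptors, 205 pairs were tested, 16 were higher and 4 lower (9.76% of them, against 7.0% over all genes), with a median log2 change of 0.12. Itpr1, the calcium release channel that Gq signalling opens, rose in S1 (0.50 ± 0.11), S2 (1.01 ± 0.13) and the segment not named (0.71 ± 0.14). Gnaq, the Gq subunit itself, rose in S2 (0.45 ± 0.10), as did the adenylyl cyclase Adcy6 (0.81 ± 0.18), and Gna14 rose in the segment not named (0.94 ± 0.19). Itpr3 rose in the distal convoluted tubule, connecting tubule, principal cells and pendrin-positive cells (log2 changes of 1.25 to 2.80), while Itpr2, another such channel, fell in the connecting tubule (-0.79 ± 0.15) and distal convoluted tubule (-0.58 ± 0.15). The Gi subunit Gnai2 rose in the connecting tubule (0.95 ± 0.20). Rgs2, which shortens Gq signalling, fell in the thick ascending limb (-1.02 ± 0.15) and rose in principal cells (1.08 ± 0.15). In pendrin-positive cells, where Adora1 and P2ry14 were higher, the adenylyl cyclase Adcy5 rose (1.11 ± 0.17), and in type A cells Adcy1 rose (1.53 ± 0.32). In endothelium the Gi subunit Gnai1 had a change of -0.72 ± 0.19, a call that was lost in 12 of 15 alternatives, every left-out mouse included, and the change was -0.20 at resolution 2 of the clustering. Without at least 1 of the mice, Itpr1 in S1 and the segment not named, Gnaq, Adcy6, Gna14, Adcy1, Itpr2 in the distal convoluted tubule and Itpr3 in the distal convoluted tubule and pendrin-positive cells also lost their calls. With cells assigned by marker score, the connecting tubule calls of Itpr2, Itpr3 and Gnai2 were lost.

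The list of 22 nucleotide handling genes gave 141 tested pairs. Of these, 16 were higher and 15 lower (22.0%, against 7.0% over all genes), with a median log2 change of 0.00. Not all of its genes act on the ligands, Dpp4 being a peptidase, and it was chosen with earlier results of these data known. Nt5e, which turns AMP into adenosine, rose in S1 (0.79 ± 0.16), S2 (1.17 ± 0.23) and the segment not named (0.74 ± 0.17), and Alpl, a phosphatase that removes phosphates from nucleotides, rose in S2 (0.79 ± 0.11) and the segment not named (0.76 ± 0.14). Entpd2, which degrades ATP, rose in S1 (0.93 ± 0.16). Dpp4, a surface peptidase, rose in S2 (0.60 ± 0.11) and pendrin-positive cells (0.83 ± 0.18) and fell in the connecting tubule (-1.40 ± 0.22). In endothelium Entpd1, which degrades ATP and ADP, rose (0.80 ± 0.11), while Alpl (-1.13 ± 0.15) and Adk, the kinase that clears adenosine inside cells (-1.03 ± 0.13), fell. Adk also fell in the connecting tubule (-0.85 ± 0.16), distal convoluted tubule (-0.61 ± 0.15), principal cells (-0.92 ± 0.21) and pendrin-positive cells (-0.73 ± 0.14). Enpp2 rose in pendrin-positive cells (0.83 ± 0.13) and in the thin limb (0.78 ± 0.14), and fell in the distal convoluted tubule (-1.10 ± 0.25). Of the nucleoside transporters, Slc29a1 fell in the connecting tubule (-0.66 ± 0.21) and Slc29a2 rose in the distal convoluted tubule (2.21 ± 0.52). Without at least 1 of the mice, Nt5e in all 3 groups, Entpd2 in S1, Adk in principal cells and the distal convoluted tubule, Enpp2 in the thin limb and distal convoluted tubule, Dpp4 in pendrin-positive cells and both transporters lost their calls. With cells assigned by marker score the connecting tubule calls of Adk (edgeR adjusted p = 0.0846), Dpp4 and Slc29a1 were lost, and at resolution 2 that of Alpl in S2 (0.0614). Dpp4 in S2 and Alpl in the segment not named each lost its call in 1 of 14 alternatives, which left out no mouse. In pendrin-positive cells 5 of 12 tested genes of this list were higher and 2 lower (58.3%, against 9.80% of all genes), and in endothelium 2 of 13 were higher and 5 lower (53.8%, against 9.08%). In the Plvap-rich part alone 1 of 11 was higher and 3 lower (36.4%, against 7.13%). In the Cldn5-rich part 1 of 12 was lower (8.33%, against 0.556%). The part of the shifted mix of the 2 in the endothelial calls was not tested. In cells of at most 20% mitochondrial UMIs, Adcy5 and Enpp2 in pendrin-positive cells had changes of -0.31 and -0.21 that did not pass, and Adk (-0.49) and Dpp4 (0.35) there did not pass either.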

How the data were processed

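Single-cell libraries of dissociated mouse kidney from 3 Sham and 3 DOCA-salt mice were analysed. The deposited matrices held raw UMI counts per gene and barcode, which the authors made with Cell Ranger on GRCm39 (9.0.0 per the labels, 8.0.1 per the file headers). The labels also list Seurat 4.0.0 and R 4.0.3.

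Barcodes with at least 500 UMIs, at least 170 genes, no more than 50% of UMIs from mitochondrial and 5% from hemoglobin genes were kept. Doublets were removed by Scrublet score at 0.8% per 1000 barcodes, since its automatic cutoff marked 0 to 122 barcodes per library. Cells were clustered with scanpy 1.11.5 (2000 variable genes, 30 components, 15 neighbours, Leiden resolution 1) and named from marker lists. Raw counts were summed per mouse and type and tested with edgeR 4.0.16 (quasi-likelihood, TMM, Benjamini-Hochberg adjustment over all genes of a type, threshold 0.05) in R 4.3.3, with no covariate. Fold changes are log2 with their SE. DESeq2 1.42.0, other scalings, filters, cell definitions and leaving out each mouse were alternatives. The edgeR step was tested on simulated data: 42% to 78% of genes changed 2-fold and 85% to 96% of those changed 4-fold were recovered, lowest in smooth muscle cells and pericytes. False calls were 8 of 176 in S2 to 22 of 195 in the thick ascending limb, above 5% of calls in 5 of the 6 types simulated.

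The genes and lists were chosen with earlier results of these data known. Genes named are the 6 receptors, of the pathway lists up to 3 called genes with the smallest p in each of the 13 types, the 3 genes most like each receptor over cell types (Pearson correlation of mean log2(CPM + 1), among 12054 genes reaching 20 CPM), overlapping genes and cell type markers. One gene of those most like a receptor is not reported here. Total counts per library were 93172739 to 137819127. The labels give 3 separate samples per group, so p-values measure the spread between those samples.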

Additional observations from a re-analysis of the deposited data

Results flagged for a closer look

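The changes of 3 receptors differed between cell types by a test of the difference itself, in 1 model over both types with each mouse as a block. For P2ry14 and Adora1 the pair was tested because the receptor had already passed in pendrin-positive cells on the same counts. The p-values of these differences are therefore not independent of those calls. For P2ry14 the log2 change in pendrin-positive intercalated cells minus that in type A cells was 1.62, and the difference passed in all 13 alternatives run (1.38 to 2.13). In 1 of them, the limit of 20% mitochondrial UMIs, P2ry14 was below the filter in pendrin-positive cells alone. The groups overlapped there, and the fall in type A cells entered the difference. For Adora1 the change in pendrin-positive cells minus that in the thin limb was 1.40, and it passed in 12 of 13 alternatives. The exception was the limit of 20% mitochondrial UMIs. For P2ry1 the change in Plvap-rich minus that in Cldn5-rich endothelium was -2.53, and it passed in all 13 alternatives run (-2.99 to -1.83), though this split of the endothelium was chosen after the data were seen. With 3 mice a group, no test for single distant mice was made.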

How the results depend on the processing

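The direction of the 3 called pairs held in every alternative that could be fitted. The number of higher pairs, 2, was 4 by DESeq2, 1 at no more than 20% mitochondrial UMIs (P2rx5 in S2, with neither of the 2 testable there), 5 with no filter on low counts and 0 to 3 without single mice. The number of lower pairs, 1, was 2 at 20% mitochondrial UMIs (with P2ry14 in type A cells), 2 without doublet removal (P2rx1 and P2ry1 in fibroblasts, testable there, while P2ry2 in endothelium did not pass), 2 with no filter and 0 to 1 without single mice. Receptors called in the sum of all cells stayed at 0 in every alternative. The 2 calls among other purinergic receptors became 1 at 20% mitochondrial UMIs, 1 without doublet removal and 0 to 3 without single mice, the 20 G protein calls 10 to 28 and the 31 nucleotide calls 15 to 35 without single mice. Equal replicate numbers did not pair the mice: deviations of same-numbered mice had correlations of -0.41 to -0.02. With the replicate number as a block the counts were 1 higher, 0 lower, 0 other receptors, 11 G protein and 14 nucleotide pairs. The block was not added to the differences between types, where each mouse was already a block.

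The difference of Adora1 changes was 0.72 at 20% mitochondrial UMIs, and 1.06 to 1.93 without single mice. The P2ry2 difference between endothelial parts was -2.25 for cells assigned by marker score (adjusted p = 0.00233 by edgeR) and -0.27 to 2.28 without single mice. The cause was not tested. The thinned share of endothelial cells with P2ry2 differed by -0.23 percentage points, by -2.01 with cells not thinned and by -0.87 at 2000 UMIs. For Adora1 in pendrin-positive cells the difference of 0.77 points became 0.23 at 20% mitochondrial UMIs, 7.28 not thinned and 1.62 at 2000 UMIs, and for P2ry14 the 0.86 points became 0.23, 4.61 and 1.40.

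Changes that had not passed crossed 0. At 20% mitochondrial UMIs these were P2ry1 in S1 (0.0576) and P2ry2 in principal cells (-0.0016), and the called Adcy5 (-0.31) and Enpp2 (-0.21) in pendrin-positive cells crossed as well. By marker score they were P2ry1 in S2 (-0.0808), P2rx5 in the thick ascending limb (-0.0466) and P2ry2 in Cldn5-rich cells (0.40). At resolution 2 they were P2ry1 in the segment not named (0.0304), P2ry2 (-0.0869) and Adora1 (-0.0511) in principal cells. By library size only they were P2ry2 in all cells (0.0306), and P2ry2 (-0.0506) and Adora1 (-0.0393) in principal cells. P2ry2 in principal cells was also -0.0065 by DESeq2, -0.00036 with DESeq2 size factors and -0.0152 with the replicate block, and P2ry2 in Cldn5-rich cells was 0.00245 without doublet removal. Without single mice, P2ry2 ranged from -0.18 to 0.076 in all cells, -0.0485 to 0.0354 in the thin limb, -0.0341 to 0.38 in the thick ascending limb, -0.33 to 0.16 in principal cells and -0.23 to 0.15 in Cldn5-rich cells. Adora1 ranged from -0.10 to 0.29 in the thin limb and -0.26 to 0.34 in principal cells, P2rx5 from -0.019 to 0.0800 in the thick ascending limb, and P2ry1 from -0.34 to 0.00914 in endothelium and -0.19 to 0.0224 in all proximal segments.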
